A study of Bos taurus with 20 samples.

Results

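The insulin-like growth factor (IGF) axis was followed in maternal blood through 10 genes: the ligands IGF1 and IGF2, the receptors IGF1R and INSR, the binding proteins IGFBP2, IGFBP3, IGFBP4, IGFBP6 and IGFBP7, and the adaptor IRS2. They were chosen by symbol, matched to the Entrez identifiers of the count data through the NCBI cattle gene table, and make up 10 of the 37063 genes counted. Of the 10, 7 had at least 10 counts in at least 5 cows and were tested among 16206 genes, whereas IGF1, IGFBP2 and IGFBP6 stayed below that limit.

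IGF1 and IGF2 are secreted growth factors that bind the tyrosine kinase receptor IGF1R, and the related receptor INSR binds insulin and, in one of its isoforms, IGF2. Both receptors phosphorylate adaptors such as IRS2, which pass the signal to the PI3K-AKT-mTOR and RAS-MAPK pathways, while IGFBPs bind the ligands in plasma and tissue and limit their access to the receptor. Circulating IGF1 comes mainly from the liver, and IGF2 is a major growth factor of the fetus and placenta. The transcripts in blood are therefore not a measure of the hormone levels in plasma, and which cells they came from was not tested.

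The blood came from 20 recipient cows at day 63 of gestation, each carrying a female fetus from an embryo produced in vitro with an oocyte of a beef dam and X-sorted semen, and 1 RNA library was sequenced per cow. All cows belonged to 1 condition, and birth weight of the calf (BW, 30 to 72.5 kg) was the only variable given in the labels. The question put to the members was therefore whether their level at day 63 varied with calf BW. The methods describe the recipients as lactating dairy cows, but a table of the same study gives their breed as Angus and a wide range of ages, so neither breed nor age could be taken into account. Blood was drawn into tubes that lyse all cells, and no cell counts were used here. In such bulk samples, fewer cells of a type and less RNA per cell cannot be told apart.

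Total counts were between 24632077 and 39892111 per cow, with a median of 33412740, and no library repeated another, since each of the 190 pairs differed by a chi-square of 12.3 or more per degree of freedom. All 8 neutrophil, 8 T cell and 7 B cell markers in the count data were counted in every cow, as were 6 of 7 monocyte and 6 of 7 NK cell markers. Of the other leukocyte markers, FCGR1A (monocyte), GZMA (NK cell), CCR3 and ALOX15 (eosinophil) had 0 counts in all 20 cows, and SDC1 (plasma cell) had a count in 14. Of 8 trophoblast markers, 5 (CSH2, PRP1, PAG2, PAG17 and IFNT2) had 0 counts in all 20. Of the remaining trophoblast markers, PAG11 had up to 12 counts in 4 cows, HAND1 up to 6 in 5 cows and PLAC8L1 10 to 46 in every cow. In 19 libraries more genes had a count of 2 than of 1, and even numbers made up 59.0 to 65.1% of counts from 1 to 10. The library of the cow with the 39 kg calf stood apart, with 47.7% even counts, and the slopes and correlations of IGF1R, IRS2 and IGFBP4 are also given without it.

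IGF1 was nearly silent in maternal blood. It had 8 counts in the cow with the lightest calf, of 30 kg, which is 0.325 CPM, the count scaled to a library of fixed size, without further scaling (95% exact binomial interval 0.140 to 0.640), and 0 counts in the other 19 cows. A count of 0 allows up to 3 counts, or 0.0752 to 0.122 CPM of the library total, and like the interval this limit covers counting error only. Both take each count as independent, and in view of the excess of even low counts they may be too narrow. IGFBP2, a binding protein made by the liver among other tissues, had 2 counts in each of 3 cows (calves of 30, 38 and 45 kg). IGFBP6, which prefers IGF2, also had 2 counts in each of 3 cows, with calves of 32, 36 and 49.5 kg. The 3 genes therefore gave no level that could be compared between cows.

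The ligand IGF2 was counted in every cow, at a low level. Its lowest value was 1.09 CPM, scaled by the trimmed mean of M-values (TMM), in the cow with the 43 kg calf, the median was 2.07 and the highest value was 3.83 in the cow with the 38 kg calf. Of the 7 highest values, 5 came from cows with calves above the median BW of 44 kg, and of the 7 lowest, 3 did. The cow with the 72.5 kg calf was among the lowest, at 1.47 CPM. The CPM of these genes is given for comparison between cows only, because no transcript lengths were used to compare genes.

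The receptors and the adaptor were the steadiest members. IGF1R had 53.6 CPM in the lowest cow (calf of 41.5 kg), a median of 62.8 and 81.0 in the highest (46 kg). The 6 highest values, from 74.3 CPM upwards, were those of the cows with calves of 46, 50, 53, 54, 55 and 56 kg, while the cow with the 72.5 kg calf was at 67.1. The coefficient of variation (CV) was 14.9%.

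INSR had 22.2 CPM in the lowest cow (30 kg), a median of 26.7 and 37.3 in the highest, again the cow with the 46 kg calf. Its second highest value, 34.9 CPM, was that of the cow with the 72.5 kg calf, and its CV was 15.2%. IRS2 had 40.4 CPM in the lowest cow (47.4 kg), a median of 48.3 and 67.4 in the highest (56 kg), with a CV of 14.9%. Of the 7 highest IRS2 values, 5 came from cows with calves above the median BW, and of the 7 lowest, 2 did.

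Among the binding proteins, IGFBP4, which is cleaved by the pregnancy-associated protease PAPPA, had the widest range of CPM among the members found in every cow. It had 11.2 CPM in the lowest cow (40 kg), a median of 23.7 and 54.7 in the highest (56 kg), a 4.88-fold range. The cow with the 46 kg calf was next at 49.8 CPM, and of the 7 highest cows 6 had calves above the median BW. The biological CV that edgeR estimated for IGFBP4 was 34.3%, against 15.8% on the trend for genes of its abundance. For IGF2 the values were 36.7% and 37.1%, and for IGF1R 11.4% and 13.6%.

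IGFBP7, a low-affinity binder of IGFs also known as angiomodulin, had 1.12 CPM in the lowest cow (43 kg), a median of 2.01 and 3.03 in the highest, the cow with the 72.5 kg calf. The cows with calves of 32 and 56 kg followed. Of the 7 highest IGFBP7 values, 6 came from cows with calves above the median BW, and of the 7 lowest, 1 did. In the gene table IGFBP7 overlaps POLR2B, which had 4576 to 8258 counts against 30 to 110 for IGFBP7, and the log2 CPM of the pair had a Pearson r of 0.52 over the 20 cows. The strand setting of the counting is not given in the sources used here, so reads of these genes may not have been separated and the IGFBP7 level is uncertain.

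IGFBP3, the main carrier of IGFs in plasma, was at the limit of detection. It had 0 counts in 3 cows (calves of 35, 53 and 56 kg), a median of 0.302 CPM and 1.55 CPM in the cow with the 49.5 kg calf, with 62 counts. That cow stood well above the next, at 0.693 CPM, and it held 62 of the 249 IGFBP3 counts of all cows.

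**Figure D1:**
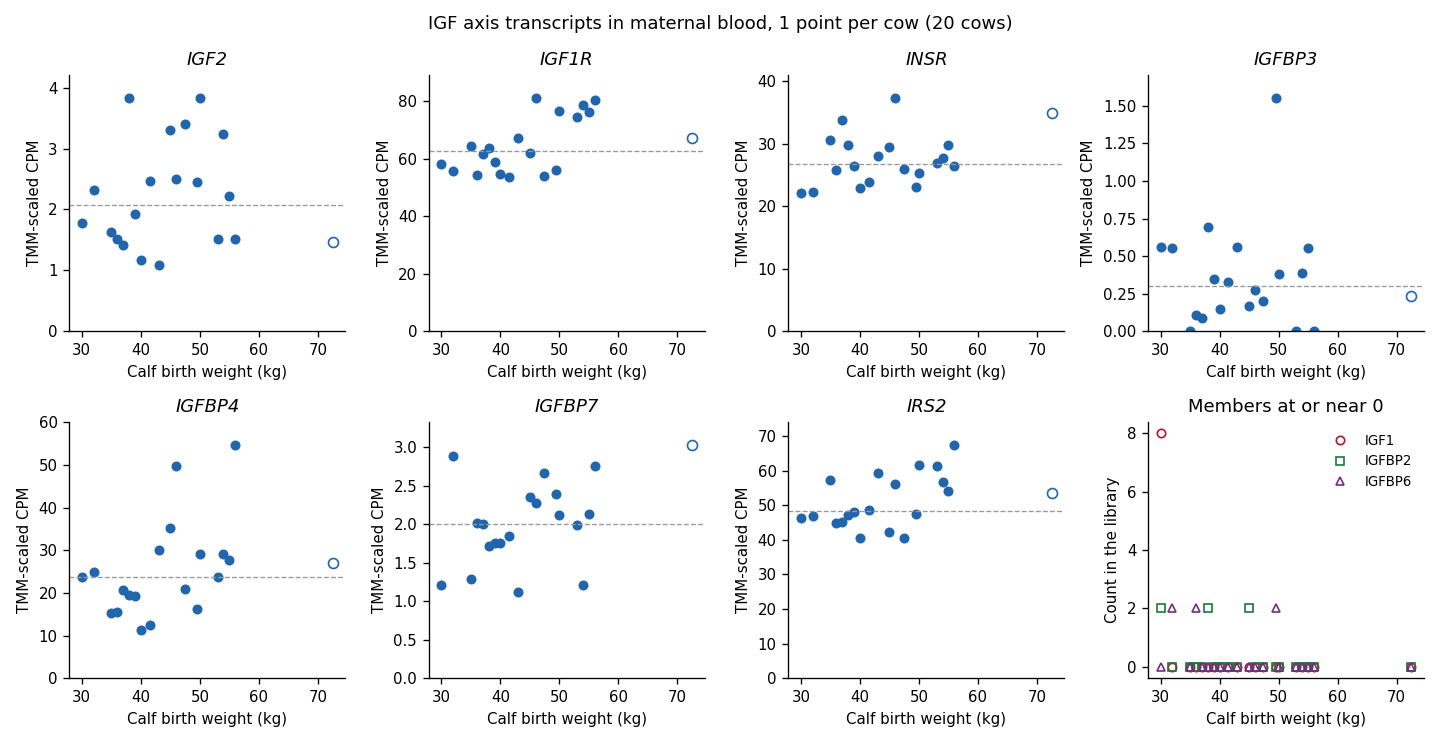
Level of the 7 tested members (TMM-scaled CPM, vertical axis) and counts of IGF1, IGFBP2 and IGFBP6 (last panel) against calf BW in kg, with 1 point per cow; the dashed line is the median of the 20 cows and the open point is the cow with the 72.5 kg calf. IGF1R lies above 74 CPM in 6 cows with calves of 46 to 56 kg, IGFBP4 spans 11.2 to 54.7 CPM, and the 3 silent members are at 0 in nearly all cows.

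The relation with calf BW was tested as a slope per kg with the quasi-likelihood test of edgeR in 19 cows, without the cow of the 72.5 kg calf, as the study did. None of the 7 members had an adjusted p (FDR) below 0.05 with edgeR, and 0.0% of all 16206 genes did. At an unadjusted p below 0.05, 3 members had a positive slope and 0 a negative slope, against 6.78% and 7.08% of all genes. With limma-voom 0 members had an FDR below 0.05, and with DESeq2, in which 1.22% of genes with an adjusted p were called in either direction, IGF1R was called and no other member was. The slopes were estimated from 1 library per cow, so their p-values measure the spread between these cows.

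IGF1R had the smallest p of the members. Its log2 level was higher by 0.0177 ± 0.0045 (SE, n = 19) per kg of calf BW, or 1.13-fold per 10 kg (95% interval 1.06 to 1.21), with p = 0.000778 and FDR = 0.121 in edgeR. DESeq2 gave a slope of 0.0181 per kg with FDR = 0.0302. When each cow was left out in turn, the DESeq2 call held 13 of 19 times, and it was lost without the cow of the 36, 39, 53, 54, 55 or 56 kg calf, with FDR up to 0.131. It was also lost with all 20 cows (FDR = 0.118).

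IRS2, the adaptor next to the receptor, had a slope of 0.0141 ± 0.0052 per kg (SE, n = 19), or 1.103-fold per 10 kg (95% interval 1.02 to 1.19), with edgeR p = 0.0125 and FDR = 0.230. When the cow of the 56 kg calf, with the highest IRS2 level, was left out, the edgeR slope was 0.0111 and p = 0.0555.

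IGFBP4 had the steepest slope, 0.0364 ± 0.0142 per kg (SE, n = 19), or 1.29-fold per 10 kg (95% interval 1.05 to 1.58), with edgeR p = 0.0180 and FDR = 0.255. Without the cow of the 56 kg calf, which also had the highest IGFBP4 level, the slope was 0.0246 and edgeR p = 0.115. Leaving out this cow thus left IGF1R as the only member with p below 0.05 in edgeR, at a slope of 0.0166 and p = 0.00308.

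The other 4 slopes were smaller than their errors or close to them. IGF2 had 0.0179 ± 0.0163 per kg (SE, n = 19, edgeR FDR = 0.673) and IGFBP7 had 0.0119 ± 0.0117 (edgeR FDR = 0.699). INSR had 0.0035 ± 0.0058 (edgeR FDR = 0.840), and the 95% interval of its fold per 10 kg was 0.942 to 1.12. With all 20 cows the IGF2 slope was 0.0036 (edgeR p = 0.795). Leaving out 1 cow moved the IGFBP7 slope from 0.0058 (without the cow of the 30 kg calf) to 0.0239 (without that of the 32 kg calf, edgeR p = 0.0540). The INSR slope moved from 0.00014 (without the cow of the 30 kg calf) to 0.0066 (without that of the 37 kg calf). For IGFBP3 the slope was 0.0065 ± 0.0443 (edgeR FDR = 0.968) and turned to -0.0236 without the cow of the 49.5 kg calf. At this depth and spread a change of IGFBP3 between 0.552-fold and 1.98-fold per 10 kg was within the interval.

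When the library of the 39 kg calf's cow was left out, edgeR slopes were 0.0175 for IGF1R (p = 0.00129), 0.0140 for IRS2 (p = 0.0164) and 0.0357 for IGFBP4 (p = 0.0244). All 7 tested members had a positive edgeR slope in the 19 cows, with a median of 0.0141 per kg, whereas 46.5% of all genes tested had a positive slope and their median was -0.00072. For INSR, IGFBP3 and IGFBP4 the sign did not hold in every alternative, so this count describes 1 fit.

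In all 20 cows, the correlation of log2 CPM with calf BW gave its highest Pearson r for IGF1R, followed by IRS2, while by Spearman IGFBP4 came before IRS2. IGF1R had a Pearson r of 0.55 (permutation p = 0.00893, adjusted over all genes 0.262) and a Spearman rho of 0.57 (permutation p = 0.0102, adjusted 0.185). Without the cows of the 72.5 and 30 kg calves, the 2 farthest from the median BW, its r was 0.67. IRS2 had r = 0.46 (permutation p = 0.0399, adjusted 0.354) and rho = 0.49 (permutation p = 0.0284, adjusted 0.263), with r = 0.52 without these 2 cows. IGFBP4 had r = 0.41 (permutation p = 0.0697, adjusted 0.413) and rho = 0.51 (permutation p = 0.0244, adjusted 0.249), with r = 0.52 without them. Without the cow of the 39 kg calf, r was 0.54 for IGF1R (permutation p = 0.0163), 0.45 for IRS2 (permutation p = 0.0521) and 0.40 for IGFBP4 (permutation p = 0.0911). Over the 16206 correlations computed, 13.3% had a permutation p below 0.05 and 0 an adjusted p below 0.05.

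IGFBP7 and INSR showed another pattern. IGFBP7 had r = 0.42 (permutation p = 0.0611, adjusted 0.396) and rho = 0.42 (permutation p = 0.0649, adjusted 0.363), and INSR had r = 0.38 (permutation p = 0.101, adjusted 0.462) and rho = 0.31 (permutation p = 0.190, adjusted 0.547). Without the cows of the 72.5 and 30 kg calves these r were 0.14 and 0.05, so both rest on those cows. For IGF2, r was 0.045 (permutation p = 0.853, adjusted 0.952) and rho 0.11 (permutation p = 0.647, adjusted 0.870), and for IGFBP3 they were -0.077 (permutation p = 0.745, adjusted 0.915) and -0.066 (permutation p = 0.782, adjusted 0.922). Without the same cows these r were 0.21 and -0.017.

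The members did not vary as 1 unit. Of the 21 pairs of tested members, 2 had an adjusted p below 0.05, and both included IGF1R. The share of all gene pairs that would pass was not computed, and the genes most like IGF1R, described below, had r of 0.90 to 0.93 with it. The receptor IGF1R and its adaptor IRS2 had a Pearson r of 0.84 (permutation p = 1e-05, the smallest these resamples can give, adjusted 0.00021) and a Spearman rho of 0.78 (permutation p = 0.00012). Their r was 0.79 without the 2 cows farthest from the median of the second gene, here IRS2. The 2 farthest cows were set in this way for each pair, so they need not be those farthest in calf BW. IGF1R and IGFBP4 had r = 0.76 (permutation p = 0.0001, adjusted 0.00105) and rho = 0.74 (permutation p = 0.00019), with r = 0.70 without the 2 farthest cows. IGF1R and INSR, the related receptors, had r = 0.52 (permutation p = 0.0176, adjusted 0.0925) and rho = 0.59 (permutation p = 0.0074), with r = 0.43 without the 2 farthest cows.

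Each member was also compared with scores of 11 lists of cell markers, the mean z score of log2 CPM over a list, in 77 relations of which 2 had an adjusted p below 0.05. Both were with the score of a list of eosinophil markers, and how many of all genes would pass in the same way was not computed. Only IL5RA, the receptor chain for interleukin-5, and GATA1, a transcription factor of the eosinophil, megakaryocyte and red cell lineages, were tested from that list of 8. CCR3 and ALOX15 were at 0 counts in all 20 cows, and EPX, PRG3, CLC and SIGLEC14 were not matched in the gene table. The list therefore rests on 2 genes, and the score is called by their names below. Their summed level was 26.7 CPM in the cow with the 40 kg calf, 74.8 at the median and 245 CPM in the cow with the 56 kg calf, the same cows that had the lowest and the highest IGFBP4.

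IGFBP4 had a Pearson r of 0.97 with the IL5RA and GATA1 score (permutation p = 1e-05, the smallest possible, adjusted 0.00077) and a Spearman rho of 0.94, with r = 0.96 without the 2 farthest cows. In relations of a member with a marker score, these were the cows farthest from the median of that score. IGF1R had r = 0.78 (permutation p = 3e-05, adjusted 0.00115) and rho = 0.76, with r = 0.72 without the 2 farthest cows. For IRS2, r was 0.58 (permutation p = 0.00734, adjusted 0.125), rho 0.46 and r without the 2 farthest cows 0.36. Without the cow of the 39 kg calf, r was 0.97 for IGFBP4 and 0.77 for IGF1R with the score, 0.84 for IGF1R with IRS2 and 0.76 for IGF1R with IGFBP4. The score itself had r = 0.48 with calf BW (permutation p = 0.0315, adjusted over the 11 lists 0.346) and rho = 0.56 (permutation p = 0.0105, adjusted 0.115), with r = 0.56 without the 2 cows farthest from the median BW.

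With the IL5RA and GATA1 score as a covariate in edgeR, the slope of IGFBP4 on calf BW was -0.0024 ± 0.0048 per kg (SE, n = 19, edgeR p = 0.623). That of IGF1R was 0.0099 ± 0.0043 (edgeR p = 0.0311) and that of IRS2 was 0.0086 ± 0.0058 (edgeR p = 0.154). In that fit 1 of the 7 members had a positive slope with p below 0.05, against 3.88% of all genes, and 0 members had an FDR below 0.05. With the score of the neutrophil list instead, a list in which 8 of 9 markers were measured at a summed 3640 to 5643 CPM, the slopes were 0.0165 for IGF1R and 0.0364 for IGFBP4. Whether the share of a cell type had a part in these slopes was not tested. The IL5RA and GATA1 score rests on 2 genes and had r = 0.97 with IGFBP4 itself, so these fits cannot decide it.

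**Figure D2:**
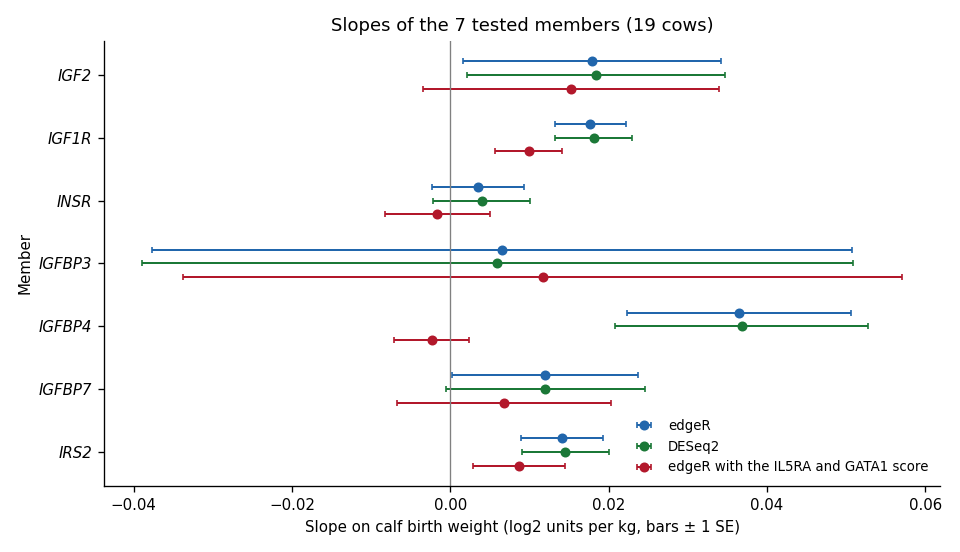
Slope of each tested member on calf BW (log2 units per kg, horizontal axis) in 19 cows, with bars of ± 1 SE, from edgeR (blue), DESeq2 (green) and edgeR with the IL5RA and GATA1 score as a covariate (red). The slope of IGFBP4 moves from 0.0364 to -0.0024 per kg with the score, that of IGF1R from 0.0177 to 0.0099, and the bars of IGFBP3 are the widest.

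**Figure D3:**
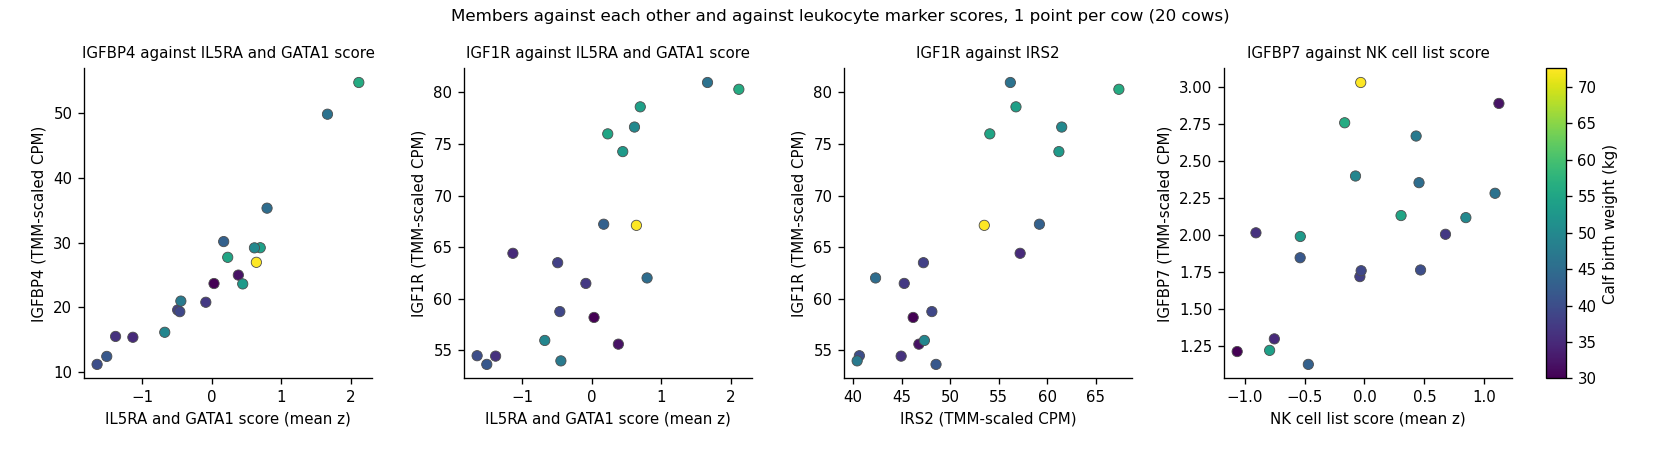
Levels of the members (TMM-scaled CPM, vertical axes) against the IL5RA and GATA1 score, against IRS2 and against the score of the NK cell list (horizontal axes), with 1 point per cow in 20 cows and calf BW in kg as the colour. IGFBP4 follows the score closely (r = 0.97 on the log2 scale), IGF1R follows IRS2 (r = 0.84), and IGFBP7 scatters more widely around the NK cell score (r = 0.61).

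IGFBP7 stood with other lists than IGFBP4 did, although neither relation passed the adjustment. It had r = 0.61 with the score of the natural killer (NK) cell list (permutation p = 0.00458, adjusted 0.118, rho = 0.53) and r = 0.57 with that of the T cell list (permutation p = 0.0081, adjusted 0.125, rho = 0.53). Without the 2 farthest cows these r were 0.55 and 0.43. For IGF2, the highest r was 0.49 with the fibroblast list (permutation p = 0.0278, adjusted 0.306), and it was 0.28 without the 2 farthest cows. In that list COL1A1 was below 1 CPM at the median but 51.2 CPM in 1 cow, and the summed level was highest, at 75.5 CPM, in the cow with the 45 kg calf, whose IGF2 level was 3.31 CPM.

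**Figure D4:**
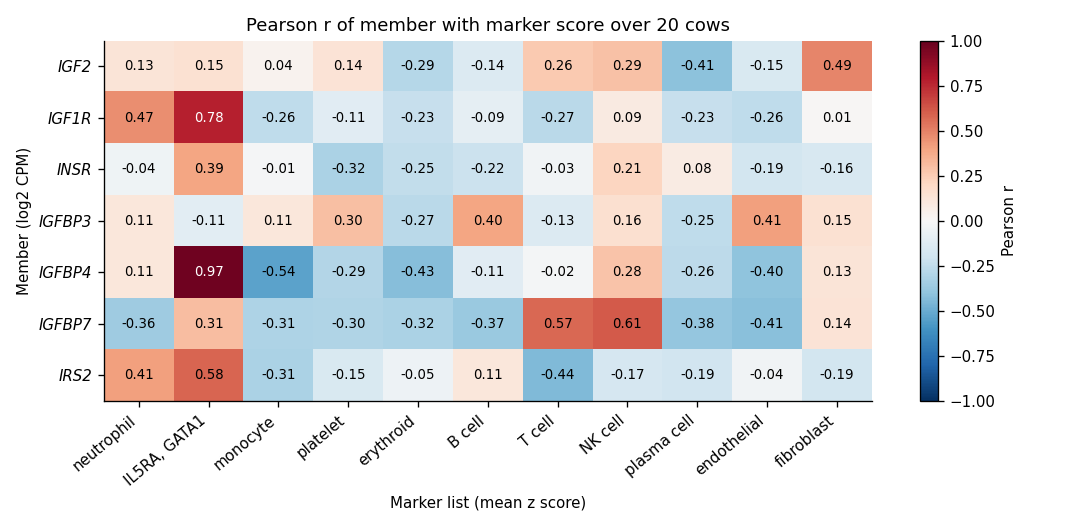
Pearson r over 20 cows between the log2 CPM of each tested member (rows) and the mean z score of each marker list (columns), from -1 in blue to 1 in red. The r of IGFBP4 and IGF1R with IL5RA and GATA1 (0.97 and 0.78) are the only ones of the 77 with an adjusted p below 0.05.

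The genes whose log2 CPM over the 20 cows was most like that of each member, among 13169 genes with a median of at least 1 CPM, differed between members and are given as a description without a test. For IGF1R they were NFIL3, a transcription factor of immune cells (r = 0.93), MSL1, a subunit of a histone acetyltransferase complex (0.90), and PXN, the focal adhesion protein paxillin (0.90). For IGFBP4 they were GATA1 (0.97), the leukotriene enzyme ALOX5 (0.97) and the peroxidase MPO (0.97). For IRS2 the nearest gene was IGF1R itself (0.84), followed by the taurine transporter SLC6A6 (0.83) and the semaphorin receptor PLXNC1 (0.83). For IGFBP7 they were LOC100848575 (0.89), SAMD3 (0.88) and the phosphatase PTPN4 (0.85).

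The remaining members had weaker neighbours. For INSR the highest r was 0.69 (SGPP1, a sphingosine phosphate phosphatase), for IGF2 0.71 (MTX1, a mitochondrial import protein) and for IGFBP3 0.77 (PKNOX2, a homeobox protein). All cows, libraries and depths are shared by these genes, and the highest of 13169 values is high by selection.

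Around the members, 73 other genes of the pathway were listed and 63 were tested. Of these, 10 had a positive and 1 a negative slope with edgeR p below 0.05, against 6.78% and 7.08% of all genes, and 0 had an edgeR FDR below 0.05. The positive count was 5 (against 4.41% of all genes) when the library of the 56 kg calf's cow was left out. The negative count was 2 (against 6.84% of all genes) when that of the 30 kg calf's cow was. In all 19 cows DESeq2 called 2 of the 63 at an FDR below 0.05, against 1.22% of all genes with an adjusted p. Some of the 63, PAPPA2 and IGFBP5 among them, had no adjusted p in DESeq2. The median edgeR slope of the 63 was 0.0026 per kg, compared with 0.0141 for the members and -0.00072 for all genes.

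Upstream of the receptors, 3 of the 9 other ligands, carriers and proteases were tested. The binding protein IGFBP1 had 16 to 68 counts, a median of 1.102 CPM and a slope of 0.0148 per kg (edgeR p = 0.279). Insulin (INS), IGFBPL1 and STC2 had 0 counts in all cows, and IGFALS, the partner of IGFBP3 in the plasma complex, had a count in 6 cows and at most 17. The proteases that cleave IGFBPs were low as well, since PAPPA had at most 18 counts and PAPPA2 a median of 0.2202 CPM. The growth hormone receptor GHR had at most 14 counts and IRS1, the other main adaptor of the receptors, at most 10, so IRS2 was the IRS gene measured in blood.

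The clearance receptor IGF2R had 118 to 174 CPM and a slope of -0.0047 per kg (edgeR p = 0.208). SOCS2, a brake on growth hormone signalling, had 5.52 to 29.1 CPM and a slope of 0.0486 ± 0.0161 per kg (SE, n = 19, edgeR p = 0.00651, FDR = 0.196). With the IL5RA and GATA1 score its slope was 0.0075 (edgeR p = 0.449).

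In the PI3K-AKT-mTOR arm, 8 of 25 tested genes had a positive slope with edgeR p below 0.05 and 0 a negative slope, against 6.78% and 7.08% of all genes, and the 25 slopes had a median of 0.0026. The 8 became 4 when the library of the 56 kg calf's cow was left out (against 4.41% of all genes) and 5 when that of the 35 kg calf's cow was (against 6.24%). FOXO4, a transcription factor held in check by AKT, had a slope of 0.0101 ± 0.0031 (SE, n = 19, edgeR p = 0.00334, FDR = 0.174). Its slope with the IL5RA and GATA1 score was 0.0053 (edgeR p = 0.0841). PDPK1, FOXO3, TSC1, PIK3R1, AKT1 and PIK3CB, named after their values were seen, had slopes from 0.0044 to 0.0094. With the score as a covariate, 3 of the 25 had a positive slope with edgeR p below 0.05, against 3.88% of all genes in that fit.

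In the RAS-MAPK arm, 0 of 12 genes had edgeR p below 0.05, against 6.78% of all genes with a positive and 7.08% with a negative slope, and the smallest were those of RPS6KA1 (slope 0.0076, p = 0.0801) and BRAF (slope 0.0063, p = 0.0943). Of the proteins that bind IGF2 mRNA, IGF2BP2 had 1.52 to 6.31 CPM and a slope of -0.0480 ± 0.0125 per kg (SE, n = 19), with edgeR FDR = 0.127 and DESeq2 FDR = 0.0266. Its slope with the IL5RA and GATA1 score was -0.0312 (edgeR p = 0.0227). IGF2BP3 had a slope of -0.0029 (edgeR p = 0.853) and IGF2BP1 had at most 3 counts.

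**Figure D5:**
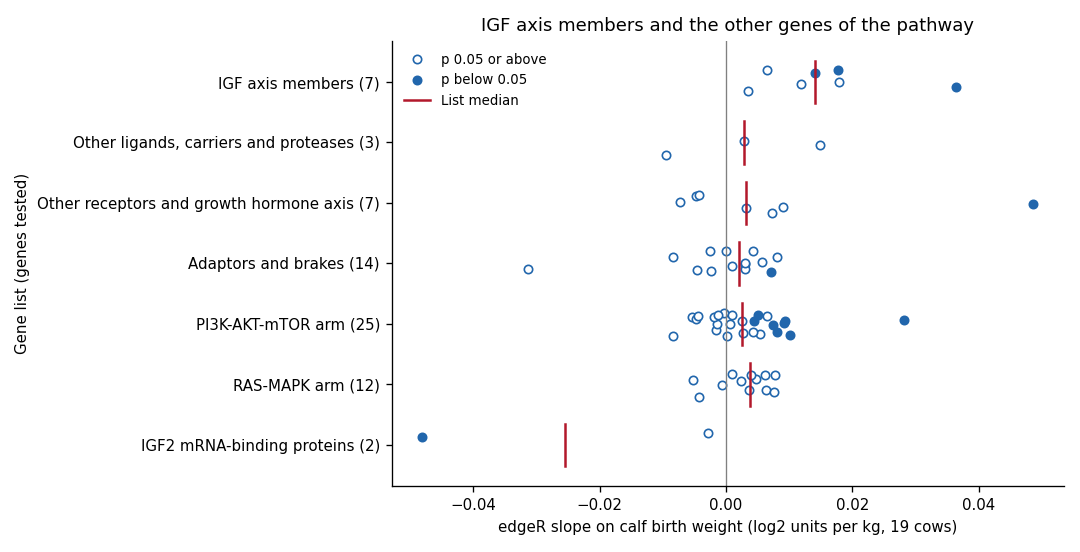
edgeR slope on calf BW (log2 units per kg, horizontal axis, 19 cows) of the 7 tested members and of the 63 other pathway genes by list, with filled points for p below 0.05, open points for the rest and a red line at the median of each list. The members lie to the right of 0 in this fit, 8 of the 25 PI3K-AKT-mTOR genes are filled, and IGF2BP2 is the filled point on the left.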

How the data were processed

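Whole blood RNA of 20 cows was analysed, with 1 library per cow. For these the authors deposited raw counts per Entrez gene, made with Trimmomatic (trimming), STAR 2.7.0b (alignment to the cattle genome) and featureCounts of Subread 2.0.3, and the counts were used as deposited. The methods name a Truseq-stranded mRNA kit and the labels a SMARTer Stranded kit. The strand setting of the counting and the handling of multi-mapped reads are not given in the sources used here. All 37063 identifiers were named with the NCBI gene table for ARS-UCD2.0. No coordinates or sequences are given because the reads were aligned to another build.

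Genes needed 10 or more counts in 5 or more cows. Their slopes on BW were fitted to 19 cows by the quasi-likelihood method of edgeR 4.0.16 under R 4.3.3, with TMM factors and Benjamini-Hochberg adjustment over all genes. Alternatives were voom of limma 3.58.1, DESeq2 1.42.0, other filters, size factors, marker scores, total count, the rank of BW, all 20 cows and leaving out each cow. DESeq2 with 1 cow left out, with 20 cows or without independent filtering, the NK cell score alone or with the eosinophil score, and correlations without the cow of the 39 kg calf were added after seeing the data. Log2 CPM used a prior count of 2. Permutation tests were two-sided with 100000 resamples (Python 3.11.15, scipy 1.17.1). The fits were tested on simulated counts.

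The members and gene lists were chosen with earlier results of these data known. Named genes are the members, pathway genes with edgeR FDR below 0.1 or DESeq2 FDR below 0.05, the 2 smallest edgeR p-values per pathway list and direction, of which some are named, and the 3 genes most like each member; pathway genes not tested are named for their low counts. Some genes that enter the list counts are not reported here by name. The lists held pathway genes by role and markers of neutrophils, eosinophils, monocytes, platelets, erythroid, B, T, NK, plasma, endothelial, fibroblast, hepatocyte and trophoblast cells. The last 2 lists had 1 tested gene each and were not scored. No batch is named in the labels.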

Additional observations from a re-analysis of the deposited data

How the results depend on the processing

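The fit was repeated for the 7 members under 399 combinations of member and alternative. In 367 the slope kept its sign and its side of FDR 0.05, in 15, all of IGF1R under DESeq2, it passed that threshold, and in 17 it changed sign. DESeq2 gave no FDR for IGFBP3 in 14 of these fits, 4 of them with a change of sign, and each had an unadjusted p above 0.05. The IGF1R slope was 0.0166 to 0.0197 in edgeR and 0.0169 to 0.0197 in DESeq2 without 1 cow, 0.0121 in edgeR with all 20 cows and 0.0181 in DESeq2 with or without independent filtering. Without the cow of the 39 kg calf it had an FDR above 0.05 in both tools. INSR was -0.0017 with the IL5RA and GATA1 score and -0.0012 with that and the NK cell score, and IGFBP4 was -0.0024 and -0.0026. IGFBP3 was -0.0177 with voom, -0.0040 and -0.0046 with all 20 cows in edgeR and DESeq2, and -0.0164 with total count as a covariate, and it ranged from -0.0244 to 0.0228 without 1 cow, including -0.0013, -0.0048, -0.00042, -0.0236, -0.0026, -0.0054, -0.0012 and -0.00078. The monocyte score as a covariate left IGFBP4 at 0.0252 (edgeR p = 0.0612). The cause of these changes was not tested.

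Members with FDR below 0.05 numbered 0 in edgeR, 1 in DESeq2 with or without independent filtering, and 0 to 1 without 1 cow. Members with p below 0.05 numbered 3, against 6.78% of all genes with a positive and 7.08% with a negative slope. With the IL5RA and GATA1 score there was 1, against 3.88% of all genes with a positive slope. With the NK cell score added there was also 1, and without 1 cow there were 1 to 3. Without a count filter the number included IGF1, which rests on 1 cow. Pathway genes with p below 0.05 and a positive slope numbered 10 of 63, against 6.78% of all genes. With the IL5RA and GATA1 score they numbered 7 of 63, against 3.88% of all genes in that fit. With both scores they numbered 4, and the share of all genes in that fit is not reported here. Without 1 cow they numbered 5 to 12 in edgeR, against 4.41 to 7.83% of all genes, and up to 14 with the DESeq2 fits included. The lowest number, 5, was found without the cow of the 56 kg calf. Those with a negative slope numbered 1, against 7.08% of all genes, and 2 with all 20 cows in edgeR and in DESeq2. They numbered 2 with the neutrophil score and 1 to 2 without 1 cow. Without 1 cow, 5.52 to 7.89% of all genes had such slopes in edgeR. Shares of all genes at p below 0.05 in the other fits are not reported here.

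Over all genes, 0 had FDR below 0.05 in edgeR, against 189 in DESeq2, 186 in DESeq2 without independent filtering, 151 in DESeq2 with all 20 cows, 147 without a count filter, 4 with all 20 cows, 1 with total count, and, without 1 cow, 0 to 34 in edgeR and 33 to 428 in DESeq2. At FDR 0.1 there were 51, against 454 in DESeq2, 423 without independent filtering, 319 in DESeq2 with all 20 cows, 535 without a count filter, 28 with all 20 cows, 32 with the rank of BW, 95, 17 and 4 with the neutrophil, monocyte and T cell scores, 2 with total count, 0 to 330 in edgeR and 146 to 793 in DESeq2 without 1 cow, and 0 with voom, robust dispersion, or the IL5RA and GATA1, NK cell or both scores.

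Of the 98 correlations between members or with marker scores, 22 changed sign without the 2 farthest cows, which were set for each relation by its second gene or its marker score. None of the 22 had an adjusted p below 0.05. The new r were 0.0067 (IGF2 and INSR), -0.038 (IGF2 and IGFBP7), -0.020 (INSR and IGFBP7), 0.11 (IGFBP3 with IGFBP4 and with IGFBP7), 0.088 and -0.30 (IGFBP3 with the eosinophil and monocyte lists), -0.23, -0.055, 0.013 and -0.11 (IGF2 with the neutrophil, monocyte, B cell and T cell lists), 0.37 (IGF1R with monocyte), 0.0096, 0.42, 0.046 and -0.20 (INSR with neutrophil, monocyte, T cell and plasma cell), -0.0041, 0.040 and 0.11 (IGFBP4 with neutrophil, monocyte and T cell), -0.19 (IGFBP7 with fibroblast), and 0.15 and 0.10 (IRS2 with monocyte and fibroblast). Depth limits IGF1, IGFBP2 and IGFBP6, whose counts of 0 to 8 allow no comparison between cows, and IGFBP3, with a median count of 10.5. No paired analysis was possible because the labels hold 1 group.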
